A study of Arabidopsis thaliana with 3 samples.

Results

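Of 27444 protein-coding genes of Arabidopsis thaliana, 441 (1.61%) carried 3 or more separate accessible sites in their own upstream DNA in root nuclei. The genes were chosen by the measured sites themselves. Peaks of the 3 libraries were merged where they overlapped, and a merged site counted when each library had a peak in it. A site was given to a gene when its midpoint lay within 3000 bp upstream of the transcription start site (TSS), inside no other gene, and nearer to this TSS than to that of any other gene. By this rule the 441 genes held 1419 of the 9668 sites given to any coding gene, out of 20186 shared sites and 43236 merged sites. Because the sites chose the genes, their number, spacing and signal are given as a description and carry no test.

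The measurement was ATAC-seq, where Tn5 transposase cuts and tags open DNA, in 3 libraries of 1 group. All were from roots of 14-day-old Col-0 plants grown on vertical agar plates in long days. Nuclei were isolated by INTACT, a transgene under the constitutive 35S promoter that puts a biotin-tagged protein on the nuclear envelope so that streptavidin beads capture the nuclei, and every library carried this transgene. The roots were used whole, so each value is a mix of all root cell types in which the transgene was active, and there was no second organ, genotype or treatment. The deposited window counts summed to 61786860, 64805459 and 113785786 in libraries 1, 2 and 3, and the peak lists held 26404, 36033 and 34828 peaks. The study calls the libraries biological repeats, and the labels do not say which plants each came from. They were made from different numbers of nuclei, fewest in library 1 and most in library 3, and the part of this in the spread between them was not tested.

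In plants, DNA that transcription factors occupy is depleted of nucleosomes and shows as a short accessible site, most often just upstream of the TSS. Sites farther upstream can act as enhancers or silencers, and a gene that responds to many signals or is used in several cell types can carry several of them. The Arabidopsis genome is compact, so the space upstream of a gene is often shared with or bounded by a neighbouring gene.

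The gene with the most sites was SZF1 (AT3G55980, chr3:20776220-20778952, + strand), which encodes a salt-inducible CCCH zinc finger protein, with 6 sites. Its 6 sites are shown in order from the TSS because they give the whole upstream arrangement of 1 gene. They are followed by the site of highest signal of the genes ranked next, TIC and AT4G17800. All are read on the strand of their gene, 5′ to 3′, from the RefSeq sequence of TAIR10.1, and site 6 of SZF1 and site 2 of AT4G17800 are cut to the central 300 bases. Capitals mark the 9 short motifs that were searched on both strands, which are named with the motif counts.
SZF1 site 1 (chr3:20776064-20776206, + strand): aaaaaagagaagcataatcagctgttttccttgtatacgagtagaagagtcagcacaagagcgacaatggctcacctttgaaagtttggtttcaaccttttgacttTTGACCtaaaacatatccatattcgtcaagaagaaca
SZF1 site 2 (chr3:20775726-20775951, + strand): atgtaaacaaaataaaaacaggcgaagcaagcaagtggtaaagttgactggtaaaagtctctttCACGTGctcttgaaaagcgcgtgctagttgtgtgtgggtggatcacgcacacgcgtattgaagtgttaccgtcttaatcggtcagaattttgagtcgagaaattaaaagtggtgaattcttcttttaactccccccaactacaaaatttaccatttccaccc
SZF1 site 3 (chr3:20775329-20775472, + strand): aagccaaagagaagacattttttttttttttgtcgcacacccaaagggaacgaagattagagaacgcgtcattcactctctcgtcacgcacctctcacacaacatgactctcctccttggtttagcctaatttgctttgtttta
SZF1 site 4 (chr3:20775051-20775221, + strand): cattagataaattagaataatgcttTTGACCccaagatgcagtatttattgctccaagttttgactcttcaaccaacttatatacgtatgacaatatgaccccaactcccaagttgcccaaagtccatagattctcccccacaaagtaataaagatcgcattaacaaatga
SZF1 site 5 (chr3:20774848-20774959, + strand): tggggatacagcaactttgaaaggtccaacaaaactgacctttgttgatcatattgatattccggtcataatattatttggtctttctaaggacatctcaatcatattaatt
SZF1 site 6 (chr3:20774011-20774310, + strand): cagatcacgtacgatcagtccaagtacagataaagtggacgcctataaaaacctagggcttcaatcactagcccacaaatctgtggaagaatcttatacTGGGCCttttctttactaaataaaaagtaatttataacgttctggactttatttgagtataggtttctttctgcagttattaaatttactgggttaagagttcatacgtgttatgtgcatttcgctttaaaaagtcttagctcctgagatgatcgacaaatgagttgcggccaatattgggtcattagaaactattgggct
TIC site 4 (chr3:7911263-7911403, + strand): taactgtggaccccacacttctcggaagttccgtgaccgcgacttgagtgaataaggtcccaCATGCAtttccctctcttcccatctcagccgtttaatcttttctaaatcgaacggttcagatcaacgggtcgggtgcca
AT4G17800 site 2 (chr4:9897289-9897588, - strand): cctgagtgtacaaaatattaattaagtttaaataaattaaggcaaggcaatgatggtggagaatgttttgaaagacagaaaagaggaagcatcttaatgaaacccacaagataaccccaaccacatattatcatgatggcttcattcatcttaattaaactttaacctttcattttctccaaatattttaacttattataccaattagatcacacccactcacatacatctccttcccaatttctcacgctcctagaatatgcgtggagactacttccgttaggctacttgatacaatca

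A G-box (CACGTG), which bZIP and bHLH factors bind, lay in site 2 of SZF1, and a W-box (TTGACC), the element of WRKY factors, in sites 1 and 4. Site 6 of SZF1 held TGGGCC, the core of the sequence that TCP factors bind. Sites 3 and 5 held none of the 9 motifs. The 300 bases of AT4G17800 site 2 also held none, and TIC site 4 held CATGCA, the core of the RY element. A match here describes the letters and not the binding of a factor.

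SZF1 had all 3000 bp upstream available, within an intergenic stretch of 6809 bp shared with a divergent neighbour. Its sites were centred 85, 382, 820, 1084, 1317 and 2059 bp upstream of the TSS. Their signal is the mean read count over the site as fold of the nuclear genome mean of the same library, averaged over the 6 sites. It was 4.29-fold in library 1, 4.86-fold in library 2 and 3.62-fold in library 3, or 4.26 ± 0.624 (SD, n = 3). The sites differed little among themselves, from 3.54-fold at site 5 to 4.64-fold at site 6, as means of the 3 libraries, and library 3 was lowest at each of the 6.

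The 8 genes with 5 sites came next. TIC (AT3G22380, chr3:7912905-7919707, + strand), a nuclear regulator of the circadian clock, had the highest mean signal of all 441. Its mean over 5 sites was 5.93, 6.68 and 4.50-fold in libraries 1, 2 and 3, or 5.70 ± 1.11 (SD, n = 3), and the 3 values lay above those of SZF1 in the same libraries. The 5 sites were centred 299, 601, 1300, 1572 and 2636 bp upstream, and the highest, site 4, was at 6.72, 7.89 and 4.73-fold. The related gene TKL (TIC-like, AT3G63180) was also among the 441, with 3 sites and a mean signal of 4.07 ± 0.446 (SD, n = 3).

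AT4G17800 (chr4:9895094-9896688, − strand), an AT-hook DNA-binding protein, had sites at 220, 751, 1194, 2264 and 2573 bp. Their mean signal was 4.77, 5.58 and 3.81-fold in libraries 1, 2 and 3. Its divergent neighbour AT4G17810, a C2H2 zinc finger protein, was itself among the 441 with 3 sites, so 8 sites lay in the 10132 bp between the 2 genes. AT1G04990 (chr1:1418612-1421863, − strand), a CCCH zinc finger protein like SZF1, packed 5 sites into 1837 available bp, at 66, 478, 929, 1479 and 1698 bp. Its mean signal was 4.80, 5.15 and 3.70-fold.

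AT2G22760 (chr2:9677844-9679502, + strand), a bHLH transcription factor, had 5 sites whose signal was higher with distance. From the nearest to the farthest, the means of the 3 libraries were 3.46, 4.07, 4.75, 5.06 and 5.16-fold, at 57, 310, 836, 1567 and 1898 bp. The order of these 5 values was the same in library 2 and in library 1, and in library 3 the last pair was reversed, at 4.07 and 4.05-fold. AT1G69760 (chr1:26239260-26240843, − strand), annotated as a suppressor SRP40-like protein, had sites spread from 96 to 2780 bp, with a mean signal of 4.31, 4.98 and 3.69-fold.

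Enzymes were also among these genes. APS1 (AT3G22890, chr3:8112614-8115024, + strand), an ATP sulfurylase that activates sulfate for assimilation, had sites at 7, 750, 1380, 1687 and 2136 bp. Their mean signal was 3.99, 4.91 and 3.23-fold, and libraries 1, 2 and 3 taken alone gave 4, 5 and 4 upstream sites. TPPF (AT4G12430, chr4:7365257-7368730, − strand), a trehalose 6-phosphate phosphatase, had 5 sites from 89 to 2322 bp at a mean of 3.87, 4.81 and 3.40-fold. Its site 2, 943 bp upstream, was highest in every library, at 4.74, 6.28 and 4.04-fold. AT2G32430 (chr2:13771296-13774502, + strand), a galactosyltransferase, had the lowest mean signal of the genes with 5 or 6 sites, at 2.77, 3.61 and 2.50-fold. Its values in libraries 1 and 3 lay below those of the other 8 genes in all 3 libraries.

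Among genes with 4 sites, AT4G17670 (chr4:9833491-9834859, − strand), a DUF581 protein, had the highest summed signal. Its counted sites began 651 bp upstream. The rule counts no site centred inside the gene or lacking a peak in a library, so it does not show the TSS itself to be closed. Libraries 1, 2 and 3 taken alone gave 5, 5 and 6 upstream sites. The mean over the 4 counted sites was 4.96, 5.89 and 4.04-fold in libraries 1, 2 and 3. Over the 441 genes, library 2 gave the highest mean signal for 429 and library 3 the lowest for 423, so nearly all of them showed this order. The SD over the 3 libraries was a median of 16.0% of a gene's mean.

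**Figure D1:**
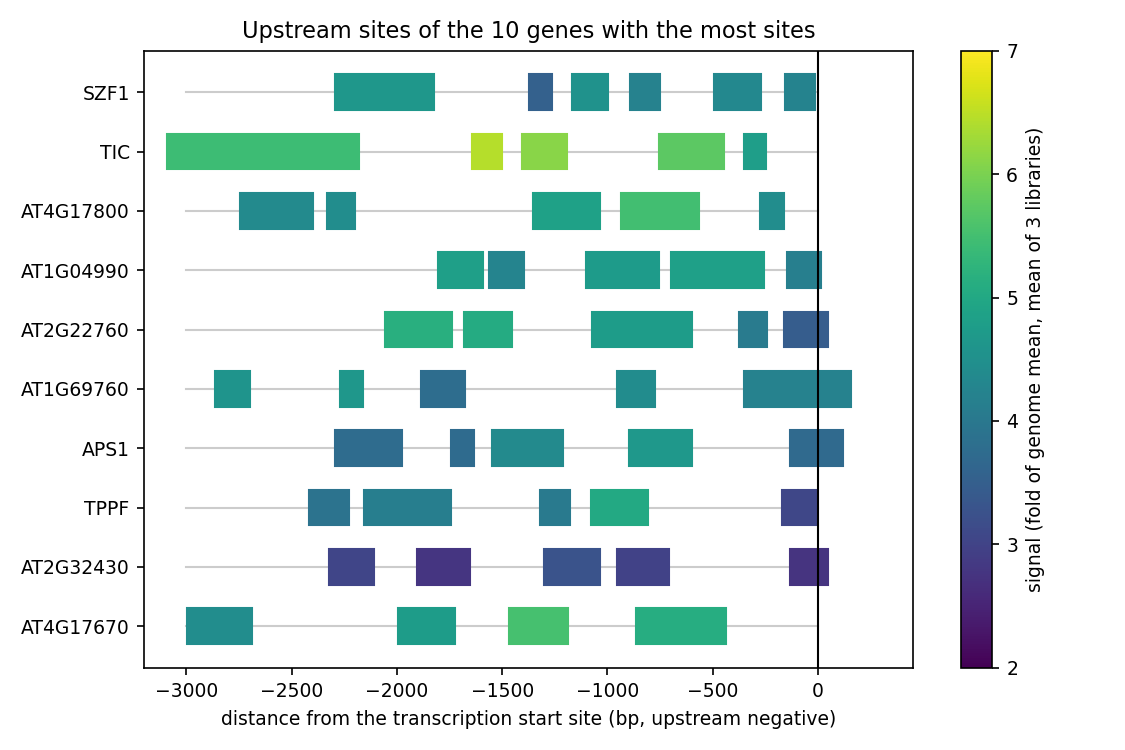
Accessible sites of the 10 genes with the most sites. The horizontal axis is the distance from the TSS in bp with upstream negative, each bar is a merged site drawn to its width, and colour gives its signal as fold of the genome mean (mean of 3 libraries). SZF1 has 6 bars, AT4G17670 has 4 and the others have 5, and the brightest bar is TIC site 4 at 6.45-fold.

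Sites per gene fell off steeply. No site was given to 20007 coding genes, 5743 had 1 site, 1253 had 2, 355 had 3, 77 had 4, 8 had 5 and SZF1 alone had 6. Genes just inside and just outside the threshold had similar signal. The median signal of the sites was 3.19, 3.82 and 2.78-fold in libraries 1, 2 and 3 for genes with exactly 3 sites, and 3.02, 3.63 and 2.66-fold for genes with exactly 2. Of the 1253 genes with 2 sites, 270 had a further upstream site with a peak in 2 of the libraries and 516 had one in any library. In 52 genes with 2 sites a further shared site lay between 3001 and 5000 bp.

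The number of genes depended on the libraries that had to have a peak. Peaks of library 1 alone gave 821 genes with 3 or more sites, library 2 alone 1362 and library 3 alone 1104. These lists held 422, 439 and 428 of the 441 genes, and 414 of them were on all 3. Without library 1, which had the shortest peak list, 734 genes reached 3 sites, against 543 without library 2 and 535 without library 3. Of the 1419 sites, 12 held stretches of read length that also occur in the plastid or mitochondrial genome, against 25 of the 8249 sites of genes with 1 or 2 sites. They belonged to AT2G07613, AT2G07626, AT2G07638 and AT2G07798, uncharacterized genes on chromosome 2 that each had 3 sites, and 437 genes remained without them. Every site of these genes matched, over 68.6 to 100% of the site. Whether organelle DNA adds to their signal was not tested.

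Available upstream space set a bound on the count. Available length is the number of bases within 3000 bp upstream that lie in no other gene and are nearer to this TSS than to any other. Its median was 2550 bp for the 441 genes and 549 bp for the other coding genes. The share of genes with 3 or more sites was 0% below 500 bp (12774 genes), 0.143% from 500 to 999 bp, 1.52% from 1000 to 1499 bp, 4.27% from 1500 to 1999 bp and 6.45% from 2000 to 2499 bp. It was 10.1% from 2500 to 2999 bp, or 88 of 874 genes, and 7.04% where all 3000 bp were available, or 142 of 2016 genes. With 2500 bp or more, 230 of 2890 genes (7.96%) qualified. The share was thus not highest in the genes with the most space, and each library alone showed the same dip, with 14.1, 25.7 and 19.7% from 2500 to 2999 bp and 12.1, 18.1 and 15.9% at 3000 bp. Of the genes with all 3000 bp, 1218 had no site.

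**Figure D2:**
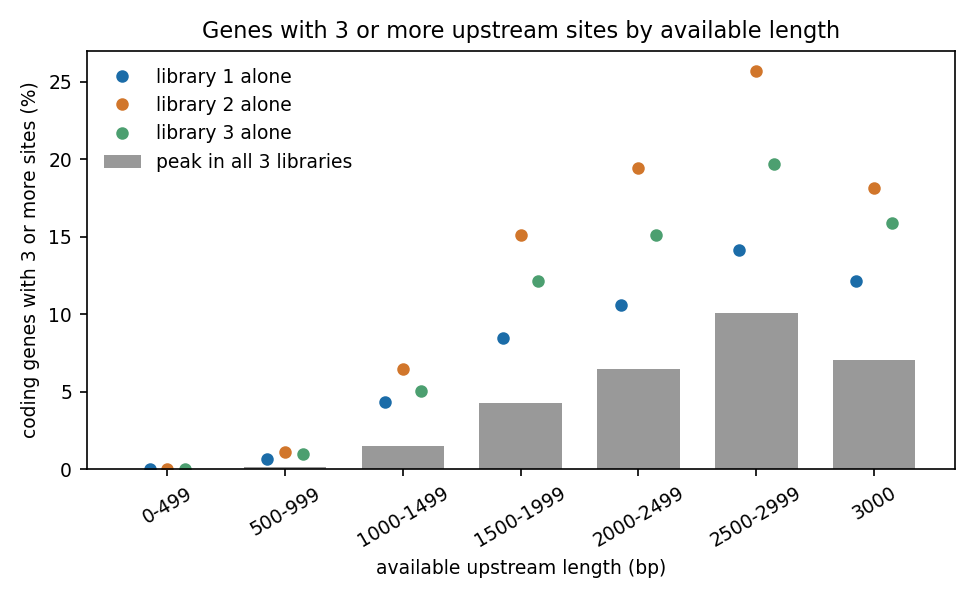
Percent of coding genes with 3 or more upstream sites in bins of available upstream length in bp. Grey bars require a peak in all 3 libraries and points are each library taken alone. The bars rise to 10.1% at 2500-2999 bp and stand at 7.04% at 3000 bp, and the points of all 3 libraries are lower in the last bin.

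Intergenic length went the other way once space was equal. It is the whole distance from the TSS to the next upstream gene. Among genes with all 3000 bp available, the median was 6498 bp for the 142 with 3 or more sites (quartiles 4429 and 8405 bp) and 7605 bp for the other 1874 (quartiles 5811 and 11348 bp). The longest was 22111 bp in the first set and 368152 bp in the second. Of the genes with all 3000 bp available whose intergenic length was 3000 to 3999 bp, 26 of 163 (16.0%) had 3 or more sites. The share was 8.46% from 4000 to 5999 bp, 7.39% from 6000 to 9999 bp and 3.18% from 10000 bp on, where 73.4% of genes had no site. Each library alone gave the same order from the shortest to the longest class, from 20.2, 32.5 and 25.8% down to 6.35, 9.70 and 7.36%. By the rule, a gene with a divergent neighbour keeps all 3000 bp only where the genes lie about 6000 bp or more apart. The classes below 6000 bp therefore lack such genes while the longer ones hold them, and the part of orientation in these shares was not tested.

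Pseudogenes, which did not bound the space in the rule, were rarer upstream of these genes. A pseudogene lay within 3000 bp upstream of 4.08% of the 441 genes, against 20.0% of other genes weighted to the same available lengths. Weighted likewise, the share was 11.7% in genes with 1 or 2 sites and 24.9% in genes with none. Genes started within 50 kb of the TSS at a mean of 29.8 per gene, against 26.9 for other genes weighted to the same available lengths. Counting pseudogenes as neighbours gave 422 genes.

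The sites were spread over the whole upstream window. The midpoints lay a median of 214 bp upstream of the TSS for the nearest site, 908 bp for the second, 1622 bp for the third and 2203 bp for the fourth, which 86 genes had. Of the 1419 sites, 22.0% lay within 400 bp of the TSS and 50.4% beyond 1000 bp. Of the 8249 sites of genes with 1 or 2, 58.1% lay within 400 bp. The difference was smaller where space was wide. In genes with 2500 bp or more available, 17.8% of the sites of the multi-site genes and 28.7% of the others lay within 400 bp, and 24.6% and 22.1% lay between 2001 and 3000 bp.

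**Figure D3:**
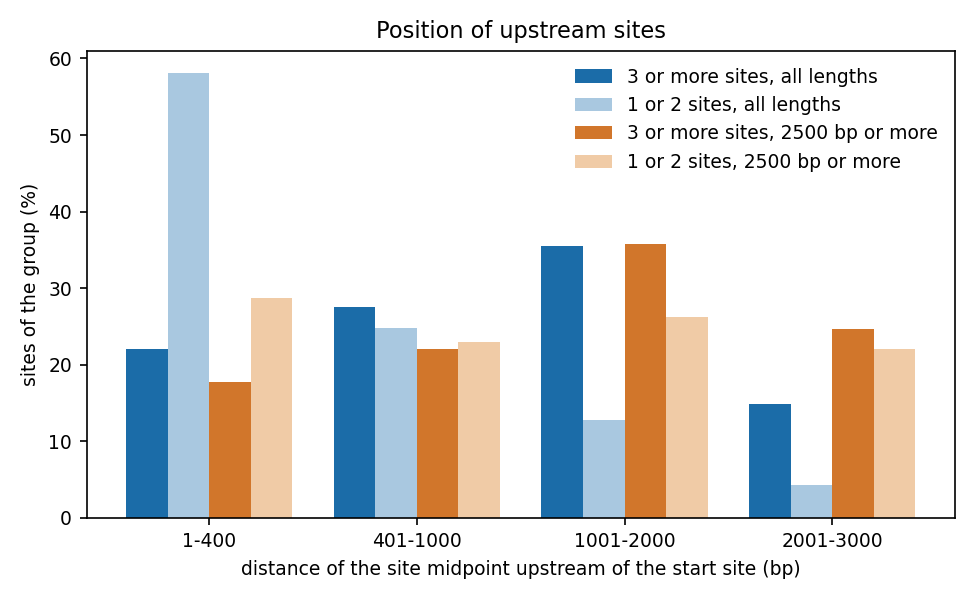
Percent of sites by distance of the midpoint upstream of the TSS in bp, for genes with 3 or more sites and genes with 1 or 2, over all available lengths (blue) and for 2500 bp or more (orange). Within 400 bp lie 22.0% of the sites of genes with 3 or more and 58.1% of the others, and the gap narrows to 17.8 and 28.7% where space is wide.

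Neighbouring sites of the 441 genes were a median of 576 bp apart, midpoint to midpoint (quartiles 420 and 771 bp, 978 pairs). Libraries 1, 2 and 3 alone gave shorter medians, of 454, 476 and 464 bp, over their own 821, 1362 and 1104 genes with 3 or more sites. The closest pair was 167 bp apart and the widest 2285 bp. Only 6 pairs (0.613%) were within 200 bp, 215 were from 201 to 400 bp, 305 from 401 to 600 bp, 229 from 601 to 800 bp and 30 were over 1500 bp. Between the edges of adjacent sites lay a median of 256 bp. The most filled class of spacing was thus 401 to 600 bp, with 31.2% of pairs. Because overlapping peaks were merged, short spacings are limited by the width of the sites, a median of 256 bp. With peaks within 100 bp merged, the median spacing was 666 bp, so these classes depend on the merging. The span from the nearest to the farthest site was a median of 1319 bp.

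A spacing shorter than that of genes with fewer sites is in part fixed by the rule, since more sites must share the same window. In genes with 2 sites the median was 629 bp. With 2500 bp or more available, it was 625 bp for the genes with 3 or more and 795 bp for those with 2. Sites were narrower, with a mean width of 295 bp against 339 bp for other sites at the same distances from the TSS. This width difference can also be fixed in part by the rule. Overlapping peaks were merged, so a gene with broad or fused sites has a lower count. How much of the difference comes from this was not tested. Together the sites of a chosen gene covered a median of 915 bp.

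The sites of a gene had similar signal. The strongest site exceeded the weakest by a median of 1.29, 1.27 and 1.26-fold in libraries 1, 2 and 3. The strongest was the nearest to the TSS in 31.7, 27.4 and 31.1% of genes and the farthest in 26.1, 29.3 and 28.8%. The same site was strongest in all 3 libraries in 232 of the 441 genes. Median signal varied little with distance. Its median in library 1 was 3.33-fold within 400 bp, 3.22-fold from 401 to 1000 bp, 3.23-fold from 1001 to 2000 bp and 3.28-fold from 2001 to 3000 bp.

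By counts, the sites were somewhat higher than other sites at the same distances, while by the peak caller's enrichment they were lower. Their mean signal was 3.33, 3.94 and 2.87-fold of the genome mean in libraries 1, 2 and 3, against 2.99, 3.53 and 2.63-fold. The mean fold enrichment in the deposited peak lists was 3.23, 3.40 and 2.81, against 3.35, 3.64 and 2.90. The bases between the sites were also raised. Outside all merged sites, the available upstream bases of the 441 genes had a mean signal of 1.63, 2.00 and 1.55-fold, against 1.14, 1.34 and 1.12-fold in genes with 1 or 2 sites and 0.650, 0.664 and 0.656-fold in genes with none, at equal available length. The upstream space of these genes between sites was thus, as a mean, above the genome mean in every library, by the same readout that chose the genes.

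Of the 26 genes among the 441 with 5000 bp of available upstream DNA, 12 (46.2%) had a further shared site between 3001 and 5000 bp, a stretch the rule did not use. Among genes with 1 or 2 sites the share was 48 of 185 (25.9%), and among genes with none 35 of 519 (6.74%). Sites thus continued beyond the window more often where more lay inside it. Neighbouring stretches of DNA share the same libraries, so these shares are a description.

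The motif content of the sites followed that of other upstream sites with a few exceptions. In windows of 200 bp at the midpoint, read on both strands, the G-box (CACGTG) was in 10.8% of the 1419 sites, in 12.2% of other sites at equal distance and in 1.26% of upstream windows of these genes outside sites. The W-box core TTGACC was in 13.5% against 13.7% and 6.18%. TGGGCC was in 13.7%, below the 20.6% of other sites at equal distance and above 1.08% outside. AAACCCTA, the telo-box of ribosomal protein and other growth genes, was in 0.916% against 1.88%, with 1.32% outside sites. CATGCA, the RY core that B3 factors bind, was in 11.4% against 9.83%, with 9.96% outside sites.

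The other 4 motifs searched differed by less than 1 percentage point. The GA repeat GAGAGAGA was in 4.02% against 3.99% and the auxin response element TGTCGG in 4.93% against 5.78%. The evening element AAAATATCT of clock genes was in 1.76% against 1.11% and the GCC-box GCCGCC of ERF factors in 1.76% against 2.09%. In upstream windows of the 441 genes outside sites, these 4 motifs were in 0.720, 3.36, 1.98 and 0.720%, so the evening element was not more frequent in the sites. A G-box lay in at least 1 site of 131 of the 441 genes and in 2 or more sites of 18 of them. A gene with more sites has more chances to hold a motif, so these last counts are not compared with other genes. The GC content of the sites was 34.2 ± 4.73% (SD over 1419 sites), against a mean of 35.3% at other sites at equal distance.

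Transcription factor genes were frequent among the 441. The 12 transcription factor lists, taken from gene symbols and product names, held 59 of them (13.4%), against 9.01% of other genes weighted to the same available lengths. Each library alone gave 10.4, 11.7 and 11.2% of its own genes. Of the 1249 factor genes, 4.72% had 3 or more sites, beside 1.61% of all coding genes. Of those with 2500 bp or more available the share was 33 of 302 (10.9%), beside 7.96%. Factor genes had more upstream space than other genes. The count is therefore also set beside the number that genes of the same available lengths would give at their own share, which was 40.8. For libraries 1, 2 and 3 taken alone, 85, 160 and 124 factor genes stood against 72.3, 120 and 97.7 at equal length. The excess was thus smaller in proportion in each library alone.

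WRKY factors, which bind the W-box and act in immunity and senescence, gave 8 of 73 genes, where genes of equal available length would give 3.17. WRKY23 (AT2G47260, chr2:19404802-19407098, − strand), an auxin-inducible factor of root development, had 4 sites from 871 to 2362 bp and a mean signal of 4.22, 4.21 and 3.17-fold in libraries 1, 2 and 3. WRKY28 (AT4G18170, chr4:10061214-10062893, + strand) had 4 sites from 867 to 2873 bp at 3.71, 4.26 and 3.02-fold. Neither had a counted site near its TSS, although sites centred inside the gene or lacking a peak in a library were not counted. Libraries 1, 2 and 3 taken alone gave 5, 5 and 5 upstream sites for WRKY23 and 4, 6 and 5 for WRKY28. WRKY22 had 4 sites, and WRKY3, WRKY18, WRKY38, WRKY53 and WRKY65 had 3 each. The lists go by current symbol and product name, and ABO3 (AT1G66600), whose RefSeq synonyms include WRKY63, also had 3 sites. With the 4 genes that are WRKY factors by synonym alone, the count was 9 of 77 against 3.24. The lowest mean signal among the 8 first counted was 2.31-fold, of WRKY18, and the highest 3.90-fold, of WRKY3.

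GRAS factors gave 6 of 37 genes against 1.03 at equal length, a share of 16.2%. With 2500 bp or more, 3 of 6 qualified. AT5G67411 (chr5:26898077-26899736, − strand) had 4 sites at 4.20, 4.29 and 3.29-fold, and AT3G50650 (chr3:18806139-18808243, − strand) had 4 at 3.56, 4.02 and 3.21-fold. HAM1, which maintains meristems, SCL13, SCL1 and LAS, the LATERAL SUPPRESSOR of axillary meristem formation, had 3 sites each, with mean signals of 3.75, 3.95, 2.98 and 3.24-fold. SHR and SCR, the GRAS factors of root radial patterning, were not among them.

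MYB factors gave 12 of 186 genes against 6.54 at equal length. MYB87 (AT4G37780, chr4:17758232-17759746, − strand) had 4 sites, at 1497, 1898, 2151 and 2801 bp, with a mean signal of 3.24, 3.61 and 2.85-fold. MYB49 (AT5G54230, chr5:22016143-22018061, − strand) had 4 at 2.83, 3.50 and 2.31-fold. MYB68 also had 4 sites, and MYB63, an activator of lignin genes, had 3. Homeobox genes gave 7 of 108 against 4.15. HB5 (AT5G65310, chr5:26101818-26104614, − strand) and HB-7 (AT2G46680, chr2:19165274-19166967, − strand), a water-deficit and abscisic acid responsive factor, are HD-Zip genes with 4 sites each. Their mean signals were 3.52, 4.37 and 3.04-fold for HB5 and 3.13, 3.57 and 2.74-fold for HB-7. KNAT3 and KNAT4, of the KNOX family, had 3 sites each, at 4.38 ± 0.988 and 3.03 ± 0.532 (SD, n = 3).

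bZIP factors gave 5 of 82 genes against 1.99. In libraries 1, 2 and 3 taken alone they numbered 8, 10 and 6 against 3.78, 6.18 and 5.08, so library 3 alone was near that number. bZIP2 (AT2G18160, chr2:7898012-7899242, − strand) had 1 site 23 bp from the TSS and the others at 2308 and 2920 bp, with a mean signal of 4.09, 5.24 and 3.49-fold. TGA1 (AT5G65210, chr5:26057533-26061157, + strand), a factor of pathogen and nitrate responses, had 3 at 4.32, 4.61 and 3.65-fold. bHLH factors gave 6 of 143 against 4.84. Besides AT2G22760 they included AT3G22100 (chr3:7783638-7784469, − strand), with 4 sites at 3.24, 3.92 and 2.64-fold. NAC factors gave 3 of 111 against 2.98, C2H2 zinc fingers 4 of 114 against 3.52, GATA and DOF factors 3 of 75 against 2.28, and LBD and TCP factors 3 of 66 against 2.64.

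A few factor families gave fewer genes than their length would. AP2/ERF factors, many of them ethylene and stress responsive, gave 1 of 131 genes, AT1G22190, where genes of equal length would give 5.0. RAV1, with an AP2 and a B3 domain, is not on that list and was among the 441 with 3 sites. MADS box factors gave 1 of 123, AGL58, against 2.65. In libraries 1, 2 and 3 taken alone, AP2/ERF genes numbered 6, 12 and 12, beside 8.55, 14.4 and 11.6 at equal length, so their count was nearer to that number in each library alone. MADS box genes numbered 2, 3 and 3 against 4.96, 8.28 and 6.68, and WRKY genes 11, 23 and 18 against 5.32, 8.97 and 7.22. Families of transcription factors thus differed in this count, each by a few genes.

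**Figure D4:**
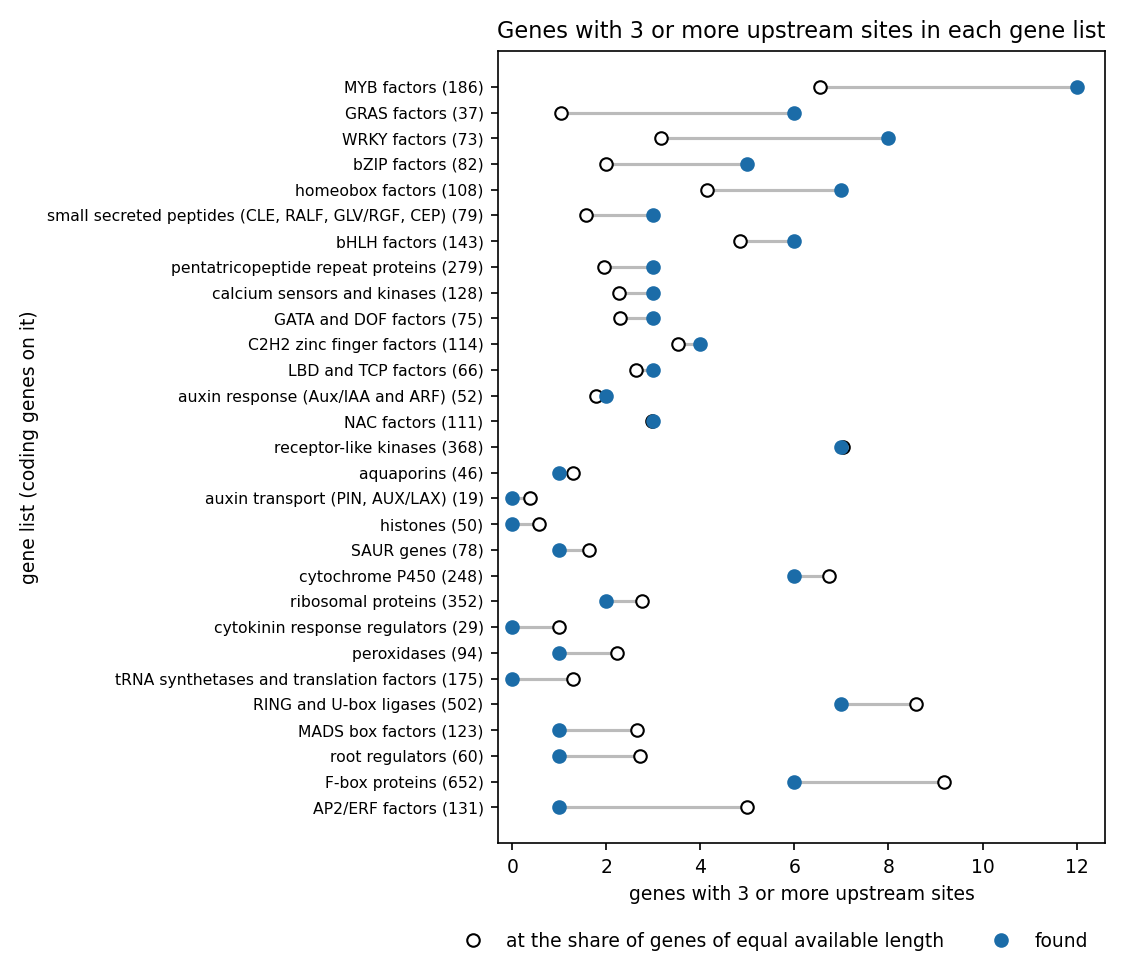
Number of genes with 3 or more upstream sites in each of 29 gene lists, with the number of coding genes on the list in brackets. Filled points are the genes found and open points the number that genes of the same available upstream length would give at their own share. MYB factors (12 against 6.54) and GRAS factors (6 against 1.03) stand farthest to the right of their open points, and AP2/ERF factors (1 against 5.0) farthest to the left.

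Root developmental regulators were not frequent among the 441. On a list of 60 genes for root patterning, auxin transport and root hairs, only ARF19 had 3 or more sites, where genes of equal length would give 2.71. Of the 25 list genes with 2500 bp or more available none did, beside 7.96% of all such genes. In libraries 1, 2 and 3 taken alone, 4, 8 and 5 of the 60 had 3 or more sites, against 4.68, 7.71 and 6.26 at equal length, so the list was close to that number in each library alone. The list is not complete, and other genes with roles in roots, such as WRKY23 and WOL, were among the 441. ARF19 (AT1G19220, chr1:6627683-6633133, − strand), the auxin response factor that acts with ARF7 in lateral root formation, had sites at 40, 503 and 828 bp within 1102 available bp. Its mean signal was 3.33, 4.17 and 3.13-fold in libraries 1, 2 and 3. The PIN and AUX/LAX auxin carriers gave 0 of 19 against 0.378, and cytokinin response regulators 0 of 29 against 0.994.

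Other parts of auxin biology were represented. AFB2 falls under the rule for named genes, and the others were chosen after their values were seen. Of the 5 genes on a list of the TIR1/AFB auxin receptors, the F-box proteins that bind auxin and mark Aux/IAA repressors for degradation, TIR1 and AFB2 qualified with 4 sites each, against 0.218 genes at equal length. The list was made after the values were seen, and 1.61% of all coding genes qualified. AFB2 (AT3G26810, chr3:9867652-9870782, + strand) had sites at 19, 933, 1572 and 2172 bp, with a mean signal of 3.99, 4.38 and 3.17-fold. TIR1 (AT3G62980, chr3:23273065-23276630, − strand) had its first site 813 bp upstream, and a mean of 3.73, 4.0 and 3.40-fold. The Aux/IAA gene IAA16 had 3 sites within 930 available bp at 4.66 ± 0.771 (SD, n = 3). WES1, which conjugates auxin to amino acids, GN, the trafficking factor GNOM that recycles PIN carriers, and WAG2 and D6PK, kinases that phosphorylate PIN carriers, had 3 sites each. Their mean signals were 3.19, 2.88, 4.02 and 2.77-fold.

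Gibberellin and trehalose genes were also seen, again named after their values were known. Of 19 gibberellin oxidases and receptors, 4 qualified against 1.09 at equal length. They were GA20OX3, which makes gibberellin, with 4 sites, GA2OX6 and ATGA2OX1, which inactivate it, and the receptor GID1B, with 3 each. Mean signals were 1.98 ± 0.246, 3.59 ± 0.302, 2.51 ± 0.348 and 4.93 ± 0.948 (SD, n = 3), so GID1B was above GA20OX3 by more than the spread of either. Of 20 trehalose phosphate synthases and phosphatases, 4 qualified against 0.821, which were TPPF, TPPG, TPS8 and TPS11. CCCH zinc finger proteins gave 4 of 71 against 1.09, and SZF1, AT1G04990, ZFN2 and AT5G18550 each had 4 or more sites.

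Cell surface and secreted signals were near the number given by space. Receptor-like kinases gave 7 of 368 against 7.04. AT3G24240 (chr3:8780238-8784453, + strand) had 4 sites at 2.95, 3.32 and 2.76-fold and AT5G51560 (chr5:20945676-20948939, + strand) had 3 at 3.79, 4.16 and 3.24-fold. Both encode leucine-rich repeat kinases. Small secreted peptides gave 3 of 79 against 1.56. They were RALFL24 and the pair CLE41 and CLE44, which encode the phloem-derived peptide that keeps vascular stem cells from becoming xylem. CLE41 had sites from 102 to 2540 bp at 3.78 ± 0.645 and CLE44 from 341 to 1581 bp at 3.29 ± 0.534 (SD, n = 3).

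Ubiquitin ligase lists were at or below that number. RING and U-box proteins gave 7 of 502 against 8.59, led by RHA3A (AT2G17450, chr2:7576388-7577846, − strand) with 4 sites at 3.59, 4.19 and 2.80-fold. AT1G49200 (chr1:18198227-18199168, + strand) had 4 sites at 2.15, 3.00 and 2.20-fold. F-box proteins gave 6 of 652 against 9.19, among them AT5G27920 (chr5:9941734-9944942, − strand), with 4 sites at 3.88, 4.86 and 3.08-fold. Cytochrome P450 genes gave 6 of 248 against 6.73. CYP706A1 (AT4G22690, chr4:11929359-11931750, + strand) had 4 sites at 3.06, 3.55 and 2.47-fold. CYP81F4 (AT4G37410, chr4:17590772-17592920, + strand), which modifies indole glucosinolates, had 3 at 4.12, 5.01 and 3.32-fold, although another annotated gene overlaps its TSS.

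Housekeeping lists had few such genes and little space. Ribosomal protein genes had a median of 240 available bp and gave 2 of 352, against 2.76. Histone genes gave 0 of 50 against 0.574, and aminoacyl-tRNA synthetases and translation factors 0 of 175 against 1.29. Pentatricopeptide repeat proteins gave 3 of 279 against 1.95. Other lists, with more space, were near the number at equal length. Aquaporins gave 1 of 46, PIP2A, against 1.29, peroxidases 1 of 94 against 2.23 and SAUR genes 1 of 78 against 1.64. Calcium sensors and kinases gave 3 of 128 against 2.27, and Aux/IAA and ARF genes 2 of 52 against 1.78.

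Product names that were looked at without a list, after the values were known, gave a few further groups. All 3 genes annotated as granulin repeat cysteine proteases, papain-type enzymes of the vacuole, were among the 441, against 0.211 at equal length. RD21A had 4 sites at 4.22, 4.92 and 3.41-fold, AT3G19390 had 3 at 3.76, 4.22 and 3.14-fold and RD21B had 3 at 3.25, 3.61 and 2.49-fold. Major facilitator transporters gave 7 of 124 against 3.13, with ERD6 and SFP1 at 4 sites each, and VQ motif proteins, partners of WRKY factors, gave 3 of 28 against 0.719. These groups were picked for their counts, beside 1.61% of all coding genes. Nutrient transporters included BOR1, the boron exporter of xylem loading, with 4 sites at 3.35 ± 0.210, and PHT1;2, a phosphate transporter, with 3 at 2.15 ± 0.400 (SD, n = 3). IPS1, induced by phosphate starvation and counted here because the annotation used lists it as protein-coding, had 4 sites at 3.12 ± 0.364. The cytokinin receptor WOL, needed for root vascular development, had 3 at 3.39 ± 0.548.

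**Figure D5:**
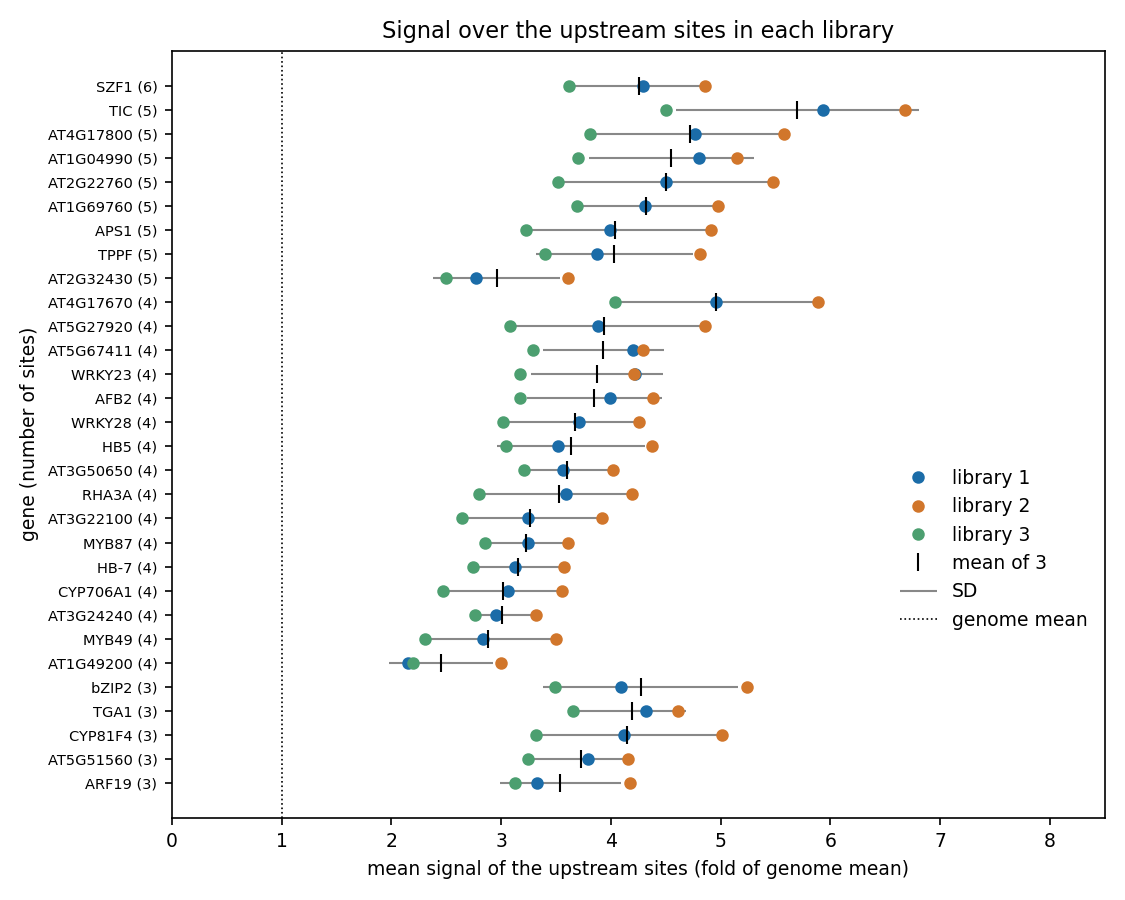
Mean signal over the upstream sites of each named gene in each library, as fold of the nuclear genome mean, with the number of sites in brackets. Points are libraries, ticks the mean of 3 and horizontal lines ± 1 SD. Every point lies above the genome mean of 1, from 2.15-fold (AT1G49200, library 1) to 6.68-fold (TIC, library 2).

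The genes lay on all 5 chromosomes in similar shares. They made up 1.68, 1.60, 1.56, 1.67 and 1.53% of the coding genes of chromosomes 1 to 5. Only 13 adjacent pairs of genes were both among the 441, of which 9 were divergent, such as GN with AT1G13970 and WES1 with AT4G27250. A divergent upstream neighbour was present for 45.1%, against 40.3% of other genes weighted to the same available lengths. Their mean length was 2664 bp against 2351 bp, the mean 5′ UTR length 286 bp against 209 bp and the mean number of exons 5.03 against 4.68. An intron in the 5′ UTR was found in 13.8% against 12.4%. A shared site in the first 400 transcribed bp was found in 14.7% against 14.4%.

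More of the genes had been given a name. A locus name stood in place of a symbol for 47.6%, against 58.5% of other genes at equal available length and 50.2% of genes with 1 or 2 sites. Genes without an assigned product were 8.62%, against 11.5% and 8.13%. On most of these measures genes with 1 or 2 sites lay between genes with none and the 441. Gene length was 2202, 2607 and 2664 bp in genes with no site, 1 or 2 sites and 3 or more, 5′ UTR length was 181, 257 and 286 bp, and the share of transcription factor genes was 8.08, 10.6 and 13.4%. The share with a 5′ UTR intron did not follow this order, at 10.6, 15.4 and 13.8%. Nor did the share with a shared site in the first 400 transcribed bp, at 12.1, 18.0 and 14.7%, or that without an assigned product, at 13.6, 8.13 and 8.62%.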

How the data were processed

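ATAC-seq was done on INTACT-purified nuclei of roots in 3 libraries of 1 group. The authors aligned single-end reads of 61 bp to TAIR10 with bowtie, keeping reads with a single position, removed PCR duplicates with SAMtools and called peaks per library with MACS2. Peak calling used no fragment model, and reads were shifted and extended. Versions are not given in the sources used here, nor is any shift of reads for the window counts. The authors deposited whole-number counts of reads over windows of 100 bp starting every 25 bp, and peak lists with a score (not used), a ratio giving the fold enrichment of each summit, and p and q as −log10. The deposited −log10 q was 1.31 or more. A read falls in several windows, so sums of counts exceed the number of reads; without molecular identifiers, reads are not separate molecules for certain.

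Genes came from the RefSeq annotation of TAIR10.1, with 33056 genes, 4843 pseudogenes left aside. All deposited windows lay within its 5 nuclear chromosomes, and coordinates count from 1. The most upstream base of a gene was taken as its TSS. Signal is the mean count of windows centred in a site, divided by the nuclear mean of the library. Other genes were weighted to the available lengths of the chosen genes in bins of 500 bp, and other sites to their distances from the TSS. For a gene list, the number at equal length is the sum, over its genes, of the share in the same bin. The assignment of sites was tested on simulated data. Python 3.11.15, numpy 2.4.6, pandas 2.3.3 and matplotlib 3.10.9 were used.

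Values per gene are given with the SD over 3 libraries. No test was made, since measured sites chose the genes and there was 1 group. The genes, gene lists and motifs were chosen with earlier results of these data known. Named genes are the 10 with the most sites (ties by summed signal), those on the root regulator list, and the first 2 of each list with 5 or more. Other genes, and the lists of CCCH proteins, auxin receptors, trehalose and gibberellin genes, were named after their values were seen. Lists match the current symbol and product, so genes known by another name are missed; the WRKY list with synonyms was counted after seeing the data. Product words of the lists were corrected for false matches after a first search. Alternatives covered the libraries required, the peak threshold and number, merging, site position, window, bounding genes, the nearest TSS and leaving out each library.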

Additional observations from a re-analysis of the deposited data

How the results depend on the processing

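Of 74 alternative values, 33 moved by less than the spread between the libraries taken alone, or, for the number of genes, by at most 1.5 times, and 41 moved further. In every alternative where they were computed (all but those on pseudogenes and organelle-matching genes, run for the number of genes alone), the median intergenic length of the chosen genes was below that of other genes with full upstream space and their share of transcription factor genes was above that of other genes at equal length. The cause of each shift was not tested, except that a shorter or longer window changes positions and lengths by construction.

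The number of genes moved by over 1.5 times to 842 with a peak in 2 of 3 libraries and to 1055 where the TSS need not be the nearest, both lists holding all 441. Leaving out library 1 also moved it by over 1.5 times, to 734, a list holding 439 of the 441. The number was 422 with pseudogenes as neighbours and 437 without organelle-matching genes, both chosen after seeing the data. It fell to 301 with peaks within 100 bp merged, where 66.7% of the 441 were kept. With equal numbers of peaks it was 312 (70.7% kept), with a window of 2000 bp 311 (70.5%) and with −log10 q of 3 or more 355 (80.5%). Positions by summits gave 449 genes, a window of 5000 bp 519 and coding genes alone as neighbours 572. Without each library in turn, the number ranged from 535 to 734, the share of genes with full space from 8.53 to 10.7%, the median spacing from 530 to 561 bp, the share of sites beyond 1000 bp from 49.6 to 49.9%, the intergenic median from 6333 to 6553 bp and the share of transcription factor genes from 12.0 to 12.7%. The highest number and share of genes came without library 1.

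With a peak in 2 of 3 libraries, the share of genes with full space was 12.5%, the spacing 534 bp and the transcription factor share 11.5% (others 8.71%). With equal numbers of peaks, the spacing was 592 bp, 52.2% of sites lay beyond 1000 bp and the intergenic median was 6220 bp. With −log10 q of 3 or more, these were 589 bp spacing, 6582 bp and 14.6% transcription factor genes. Merging within 100 bp gave 666 bp, 53.7% and 14.3%. Positions by summits gave 556 bp, an intergenic median of 6597 bp and 12.5%. A window of 2000 bp gave 529 bp, 39.1%, 4805 bp (others 5026 bp) and 12.5%, and one of 5000 bp gave 606 bp, 56.0%, 10859 bp (others 13968 bp) and 14.3%. With coding genes alone as neighbours, the values were 589 bp, 52.4%, 6597 bp and 12.6%. Where the TSS need not be the nearest, they were 613 bp, 57.8%, 4340 bp (others 4910 bp) and 9.67% (others 7.16%).

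No paired analysis was possible because all libraries form 1 group. Limits are the peak threshold of the library with the shortest list, the mix of root cell types in each library, and list counts of a few genes, which a change of 1 or 2 genes would alter.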
